A study of Homo sapiens with 6 samples.

Results

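The genes described here are 5 host genes of microRNAs, MIR100HG, MIR99AHG, MIR22HG, MIR17HG and MIR4435-2HG, out of the 60708 genes counted in every library. They were chosen by name as long noncoding RNA (lncRNA) genes that carry microRNAs, and MIR100HG and MIR99AHG were included because they hold members of the miR-99 family. The 3 genes MIR100HG, MIR22HG and MIR4435-2HG reached the summed count of 200 over the mimic libraries that was required for a test, while MIR99AHG (174 counts) and MIR17HG (152 counts) did not and were tested only under looser filters on low counts.

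The cells were MDA-MB-231, an established human line of triple-negative breast cancer, transfected with a miR-99b-5p mimic or with a scrambled control RNA. The methods of the study give 25 nM of mimic or control and a harvest after 18 h, and all libraries share this line and these conditions. RNA bound to AGO2, the protein that carries mature microRNAs to their targets, was recovered by immunoprecipitation (AGO2-IP), and the unbound remainder was sequenced as the flow-through. The mimic group had 2 AGO2-IP and 2 flow-through libraries, numbered 1 and 2, and the scrambled control had 1 library of each fraction. The mimic was delivered transiently to 1 line and the control has no replicate, so differences between mimic and control carry no p-value. The methods call the replicates independent and biological and give 2 for each condition, which matches the mimic libraries here, while the control has 1 library of each fraction.

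A microRNA host gene is transcribed as a long RNA from which hairpins are cut and processed into short mature microRNAs. The hairpin can sit in an intron, so that the spliced host RNA no longer holds it, or in an exon, where cutting it out destroys the transcript. MIR100HG and MIR99AHG each carry a cluster of a miR-99 family member, a let-7 member and a miR-125b, MIR17HG is the primary transcript of an oncogenic microRNA cluster, and MIR22HG carries miR-22. The libraries measured the long host RNAs and not the mature microRNAs.

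Gene counts per library ranged from 7772149 to 8076375 in the controls and from 38022779 to 48544756 in the mimic libraries, so values of the low genes are least precise in the controls. Read pairs assigned to no gene made up 92.3% and 95.03% of the control flow-through and control AGO2-IP, against 21.4% to 47.2% of the mimic libraries, and mitochondrial genes took 43.4% of gene counts in the control flow-through and 0.0116% to 3.48% elsewhere. Among markers of the line, VIM (129 to 594 counts-per-million of gene counts, CPM, where the total is that of the library's genes), CD44 (59.0 to 478), CAV1 (107 to 791) and AXL (520 to 2729) were present in all 6 libraries, while ESR1 and PGR stayed at or below 0.991 CPM, CDH1 at or below 3.96, EPCAM between 2.80 and 11.8, and the leukocyte gene PTPRC at or below 1.86. Mimic flow-through 1 and 2 stood apart from each other more than the mimic AGO2-IP libraries did, with a standard deviation of 1.44 against 0.84 over the log2 differences of the genes. Across 13066 genes, which are not independent replicates, the flow-through difference followed the GC content of the transcript with a Spearman's rho of -0.72, genes poor in GC being higher in flow-through 1.

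The mimic and the microRNAs of the first 2 hosts are shown because they define the family relation. In each mature sequence (RefSeq, GRCh38.p14, read 5′ to 3′) the capitals mark the seed, bases 2 to 8.
hsa-miR-99b-5p: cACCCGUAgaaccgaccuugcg
hsa-miR-100-5p: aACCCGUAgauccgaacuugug
hsa-miR-99a-5p: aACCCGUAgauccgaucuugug
hsa-let-7a-5p: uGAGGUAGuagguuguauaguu
hsa-let-7c-5p: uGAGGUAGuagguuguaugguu
hsa-miR-125b-5p: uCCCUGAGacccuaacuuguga

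The mimic sequence, miR-99b-5p, lies at chr19:51692618-51692639 on the plus strand, outside the 5 genes. MiR-100-5p lies at chr11:122152275-122152296 on the minus strand within MIR100HG, and miR-99a-5p at chr21:16539101-16539122 on the plus strand within MIR99AHG. All 3 share the seed ACCCGUA. Counted from 1 at the 5′ end, with the base of miR-99b-5p first, miR-100-5p differs by C1A, A11U, C16A and C21U, and miR-99a-5p by C1A, A11U, C16U and C21U, all outside the seed. The let-7 members of both hosts also share a seed, GAGGUAG. Of 14 mature sequences looked up for the mimic and the hosts, 9 different seeds were found, and in MIR17HG the pairs miR-17-5p with miR-20a-5p and miR-19a-3p with miR-19b-3p shared theirs.

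**Figure D1:**
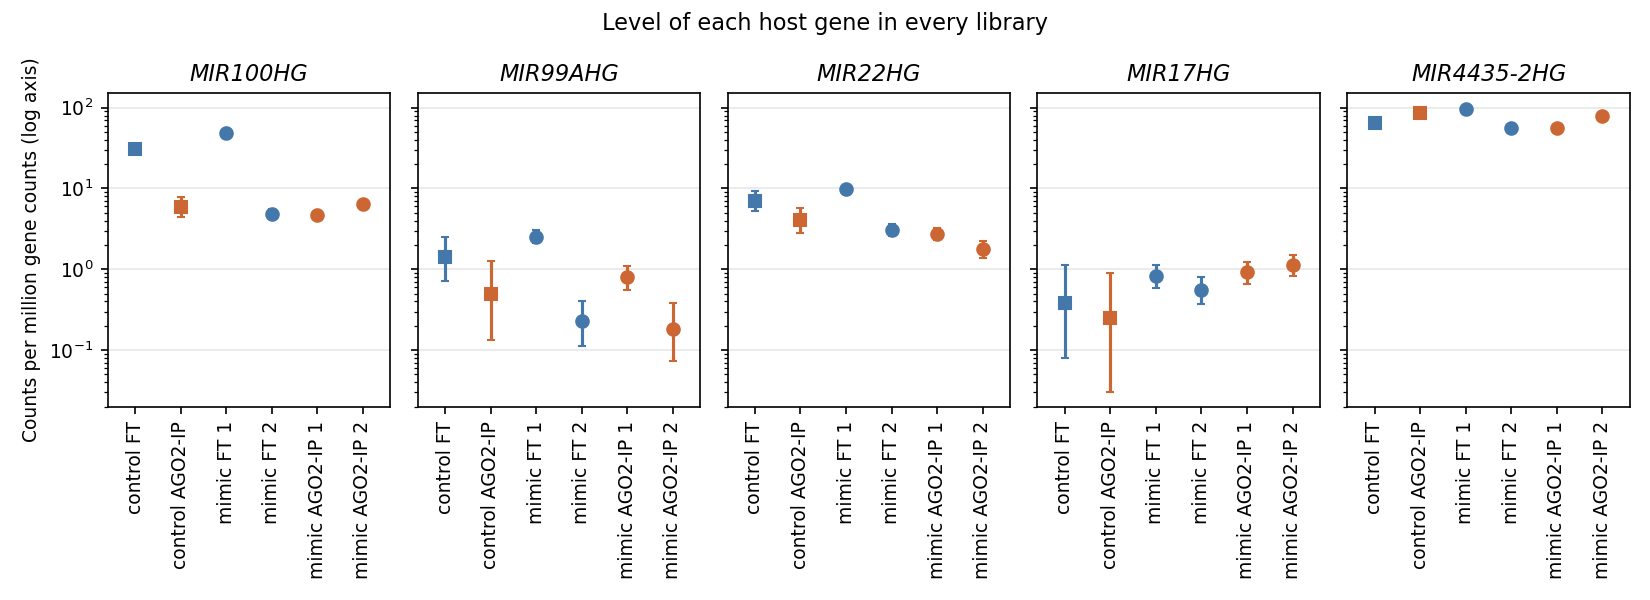
CPM (counts-per-million of gene counts, log axis) of each host gene in the 6 libraries, with squares for control, circles for mimic, blue for flow-through (FT), orange for AGO2-IP, and bars for the 95% Poisson interval, which covers counting error only. MIR100HG stood at 31.3 and 49.0 in the control and the first mimic flow-through and between 4.66 and 6.44 in the other 4 libraries, while MIR4435-2HG stayed between 55.9 and 97.1 in all 6.

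MIR100HG is an lncRNA gene at chr11:122028325-122556721 on the minus strand (GRCh38, GENCODE 44; ENSG00000255248.9 in the count tables). The hairpins of MIR100, MIRLET7A2 and MIR125B1 lie outside every exon of its 107 annotated transcripts, so the counts, which come from exons, do not include them. The control had 48 counts in AGO2-IP and 243 in flow-through. The mimic flow-through libraries 1 and 2 had 2302 and 237 counts, and the mimic AGO2-IP libraries 1 and 2 had 218 and 245. In CPM the control stood at 5.94 in AGO2-IP and 31.3 in flow-through, the mimic flow-through libraries at 49.0 and 4.88, and the mimic AGO2-IP libraries at 4.66 and 6.44. The control flow-through and mimic flow-through 1 were high and the other 4 libraries were low, so that flow-through 2 lay within the range of the AGO2-IP libraries and the mimic groups overlapped.

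In the mimic cells the MIR100HG mean was 26.9 ± 31.2 CPM in the flow-through and 5.55 ± 1.26 in the AGO2-IP (SD, n = 2 each). The edgeR quasi-likelihood fit gave a log2 fold change of AGO2-IP over flow-through of -2.12 ± 0.90 (SE; 95% interval -4.10 to -0.13), which was not called (adjusted p = 0.186, Benjamini-Hochberg over 13078 genes). Calls needed an adjusted p of 0.05 or less together with a log2 fold change whose size was 1 or more, and 0.658% of the genes tested were called, 0.413% as depleted from AGO2-IP and 0.245% as enriched. None of the 3 host genes tested was called by edgeR, nor was any of the 789 lncRNA genes tested. MIR100HG, 1 of the 3, had an unadjusted p under 0.05 in edgeR, as 23.8% of all genes did. PyDESeq2 called none of the 3 (MIR100HG -2.09, adjusted p = 0.0738), while it called 8.24% of all genes and 39 of the 789 lncRNA genes depleted. Between mimic and control cells, these bulk libraries cannot tell a change in RNA per cell from one in the share of cells holding that RNA.

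The MIR100HG value turned on the flow-through libraries. Pair by pair, on log2 values normalized over all 6 libraries by trimmed mean of M values (TMM), AGO2-IP minus flow-through was -3.19 in mimic pair 1, 0.16 in mimic pair 2 and -3.05 in the control pair. Mimic pair 1 and the control pair thus ran alike and mimic pair 2 showed almost no difference. Without mimic flow-through 2 the fold change was -2.96 and MIR100HG was called depleted (edgeR adjusted p = 0.0307), as were 3.4% of the genes tested, and without mimic flow-through 1 it was -0.14 (edgeR adjusted p = 0.886), while 20.6% of genes were then called depleted.

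MIR100HG is poor in GC, at 37.2% of its longest transcript, and the flow-through difference of 2.82 (log2, library 1 minus library 2) came down to 1.29 once each library's trend on GC content was removed. With that trend removed the fold change was -2.56 and the gene was called depleted (edgeR adjusted p = 0.0497), as were 2.17% of the genes tested. With the replicate number as a block it was -1.54 and not called (edgeR adjusted p = 0.229), where 5.08% of genes were called depleted, and with block and GC removal together it was -2.44 and called depleted (edgeR adjusted p = 0.00149), as were 12.5% of the genes. Every one of the 16 alternatives computed gave a value below 0, from -2.96 to -0.14, and 3 of them passed the threshold.

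**Figure D2:**
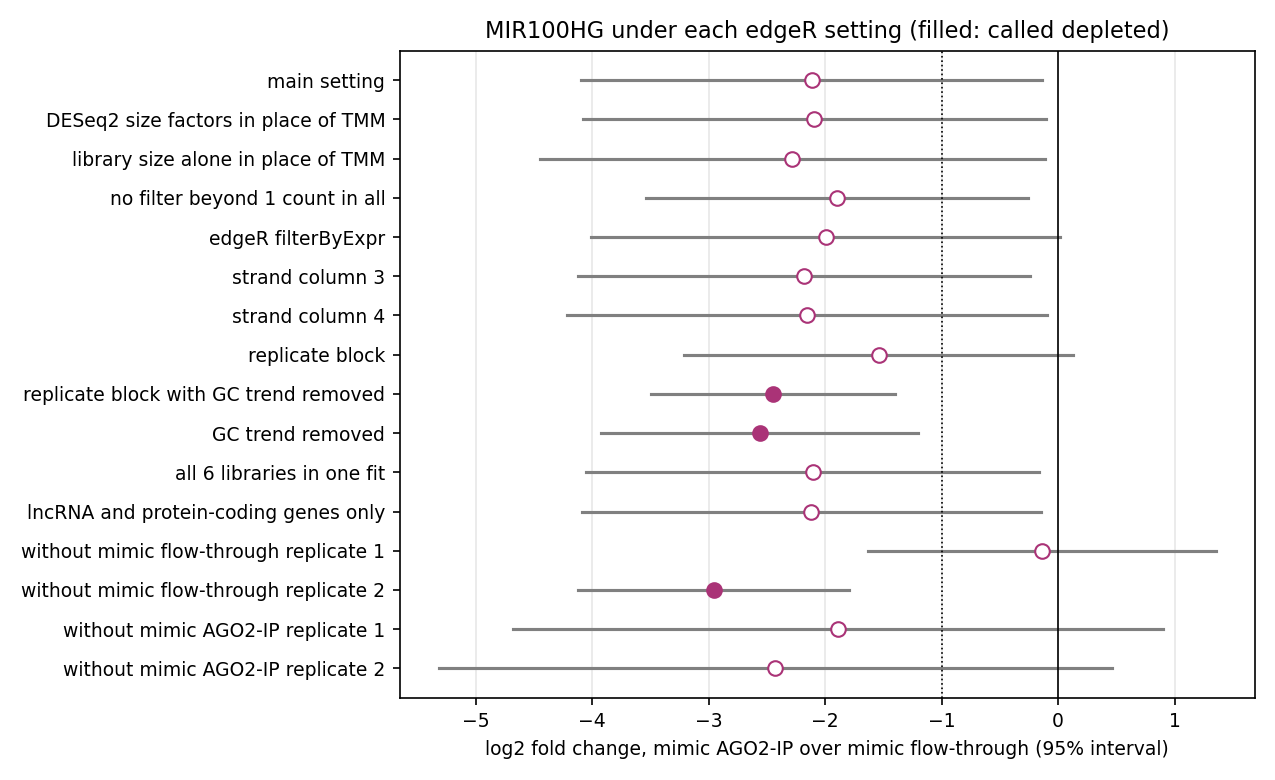
Log2 fold change of MIR100HG, mimic AGO2-IP over mimic flow-through, in the main edgeR setting and 15 alternatives, with 95% intervals, filled points where the gene was called depleted, and the dotted line at the fold threshold. The 3 filled points are at -2.44, -2.56 and -2.96, and leaving out the first mimic flow-through library brought the value to -0.14.

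In the scrambled control, MIR100HG had a log2 ratio of AGO2-IP over flow-through of -3.22 on TMM-normalized CPM, and of -2.33 with library size alone. On the unadjusted scale the ratio was -2.40, with an exact 95% interval from -2.87 to -1.94 that covers counting error only. Of 8245 genes with at least 200 counts in the control pair, 18.1% had a ratio of -1 or lower. Of the 5 host genes, MIR100HG, MIR99AHG and MIR22HG were at or below -1 and none was at or above 1, although only MIR100HG and MIR4435-2HG reached 200 counts in that pair. MIR100HG was at -1 or lower both here and in the mimic fit, as were 9.67% of the 8225 genes that both hold. With library size alone the number of host genes at or below -1 in the control pair was 2, since that scaling moves the median over all genes from 0.01 to 0.91.

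MIR99AHG, the other host of a miR-99 member, lies at chr21:15928296-16646364 on the plus strand (ENSG00000215386.13). The MIR99A hairpin lies outside every exon, whereas MIRLET7C lies within an exon in 3 and MIR125B2 in 1 of its 258 annotated transcripts. The control had 4 counts in AGO2-IP and 11 in flow-through, mimic flow-through 1 and 2 had 119 and 11, and mimic AGO2-IP 1 and 2 had 37 and 7. In CPM this was 0.495, 1.42, 2.53, 0.227, 0.792 and 0.184 in the same order. Mimic flow-through 1 was the highest and mimic AGO2-IP 2 the lowest, 13.8-fold apart, and the mimic groups overlapped. Within the mimic pairs the log2 difference of AGO2-IP from flow-through was -1.42 and -0.42, and in the control pair -2.04, all below 0. Under looser filters on low counts the mimic fold change was -1.23 with filterByExpr (edgeR adjusted p = 0.541) and -1.11 with no filter (edgeR adjusted p = 0.807), and MIR99AHG was called in neither. The control value rests on 4 and 11 counts, and its exact interval on the unadjusted scale, -3.62 to 0.24, includes 0.

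As in MIR100HG, the mimic flow-through libraries of MIR99AHG differed most, 11.2-fold against 10.03-fold in MIR100HG. The mimic AGO2-IP libraries differed 4.30-fold in MIR99AHG and less than 1.5-fold in MIR100HG, where library 1 was at 0.724 of library 2.

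MIR22HG carries MIR22, a hairpin that lies within an exon in 30 of its 32 annotated transcripts, and spans chr17:1711447-1717174 on the minus strand (ENSG00000186594.14). The control had 33 counts in AGO2-IP and 55 in flow-through. The mimic flow-through libraries had 469 and 150 counts and the mimic AGO2-IP libraries 128 and 68. In CPM this was 4.09, 7.08, 9.98, 3.09, 2.74 and 1.79 in the same order. Both mimic AGO2-IP libraries were below both mimic flow-through libraries, as they were in 28.5% of all genes tested.

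The MIR22HG mean was 6.53 ± 4.87 CPM in the mimic flow-through and 2.26 ± 0.672 in the mimic AGO2-IP (SD, n = 2 each). The edgeR fit gave a log2 fold change of -1.46 ± 0.81 (SE; 95% interval -3.24 to 0.32), which was not called (adjusted p = 0.290). Under the 16 alternatives it ranged from -1.97 to -0.78 and was called under none. The control ratio was -1.61 on TMM-normalized values and -0.79 on unadjusted CPM (exact interval -1.46 to -0.14), so all 3 pairs ran in 1 direction.

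MIR17HG, the primary transcript of the cluster with MIR17, MIR18A, MIR19A, MIR20A, MIR19B1 and MIR92A1, lies at chr13:91347686-91397592 on the plus strand (ENSG00000215417.13). All 6 hairpins lie within an exon in 3 of its 16 annotated transcripts. The control had 2 counts in AGO2-IP and 3 in flow-through, the mimic flow-through libraries had 39 and 27, and each mimic AGO2-IP library had 43. In CPM this was 0.248, 0.386, 0.830, 0.556, 0.920 and 1.13 in the same order. It was the only one of the 5 with both mimic AGO2-IP libraries above both mimic flow-through libraries, an order seen in 28.1% of all genes tested, among which MIR17HG was not. The log2 difference was 0.31 and 0.74 in the mimic pairs, with a mean of 0.53, and the control ratio of -0.86, at 2 and 3 counts, had an exact interval from -4.22 to 2.49 on the unadjusted scale. The 95% Poisson intervals of the lower flow-through library (0.367 to 0.809 CPM) and the higher AGO2-IP library (0.818 to 1.52 CPM) just missed each other, and those of the other mimic combinations overlapped. Under looser filters on low counts the MIR17HG fold change was 0.73 with filterByExpr (edgeR adjusted p = 0.641) and 0.94 with no filter (edgeR adjusted p = 0.807), and it was called in neither.

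MIR4435-2HG, also annotated as a host of MIR4435-2, lies at chr2:111006015-111523376 on the minus strand (ENSG00000172965.17), and its hairpin is within an exon in 1 of 108 annotated transcripts. The control had 697 counts in AGO2-IP and 500 in flow-through. The mimic flow-through libraries had 4564 and 2735 counts and the mimic AGO2-IP libraries 2615 and 2997. In CPM this was 86.3, 64.3, 97.1, 56.3, 55.9 and 78.8 in the same order. The 6 libraries lay within a 1.74-fold range, the narrowest of the 5 genes, and the mimic groups overlapped.

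The MIR4435-2HG log2 fold change in the mimic cells was -0.17 ± 0.59 (SE; 95% interval -1.47 to 1.13) and was not called (edgeR adjusted p = 0.881). The interval includes changes of more than 2-fold either way, so it does not show that the fractions held the RNA equally. The control ratio was -0.47 on TMM-normalized values and 0.44 with library size alone, so its sign depended on the scaling. With the GC trend removed the mimic fold change was -0.85 (edgeR adjusted p = 0.246), and with block and GC removal also -0.85 (edgeR adjusted p = 0.113), in both cases with both AGO2-IP libraries below both flow-through libraries and not called.

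Counts of MIR4435-2HG are also touched by its neighbour on the opposite strand, BCL2L11, a proapoptotic BCL2 family gene that was singled out after its values were seen and whose exons overlap those of MIR4435-2HG by 727 bp. The main counts ignore strand, and pairs that fall on exons of 2 genes are left out of both. The sum of the strand-specific columns exceeded the main count of MIR4435-2HG by 269 pairs in control AGO2-IP and 33 in control flow-through, by 239 and 71 in the mimic flow-through libraries and by 708 and 1499 in the mimic AGO2-IP libraries. The same excess for BCL2L11 was 268, 33, 229, 69, 702 and 1487 in the same order, and its main counts were 1092, 110, 740, 428, 2490 and 6493. The excess was 2.60% to 6.60% of the MIR4435-2HG count in the flow-through libraries and 27.1% to 50.0% in the AGO2-IP libraries. With a strand column in place of the main count the MIR4435-2HG log2 fold change was 0.16 (edgeR adjusted p = 0.888) or 0.25 (edgeR adjusted p = 0.818). The first strand column held 49.0% of strand counts in the control flow-through and 55.1% in mimic flow-through 2, the lowest and highest shares. The libraries were thus not strand-specific, and a strand column does not separate the 2 genes or correct for their overlap. For MIR100HG, MIR99AHG and MIR17HG the excess was 0 in every library.

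CYTOR, the near-identical copy of MIR4435-2HG elsewhere on the same chromosome (chr2:87454781-87636740, plus strand), shares sequence with it, and pairs that match both copies equally are not counted for either, so both counts are uncertain. The control had 140 counts of CYTOR in AGO2-IP and 254 in flow-through, the mimic flow-through libraries had 3350 and 2712, and the mimic AGO2-IP libraries 706 and 808. Unlike MIR4435-2HG, it had both mimic AGO2-IP libraries below both flow-through libraries, as 28.5% of all genes tested had. Its log2 fold change was -1.83 ± 0.62 (SE) and was not called in the main fit (edgeR adjusted p = 0.125). With the GC trend removed CYTOR was called depleted (edgeR adjusted p = 0.0389), as were 2.17% of all genes tested. With block and GC removal it was also called depleted (edgeR adjusted p = 0.000352), as were 12.5%. PyDESeq2 called it depleted too (adjusted p = 0.0294), as it did 8.24% of all genes. Without mimic flow-through 1, which leaves 1 flow-through library, the CYTOR value was -1.94. The control ratio of CYTOR was -1.79. The difference between the copies was not tested.

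**Figure D3:**
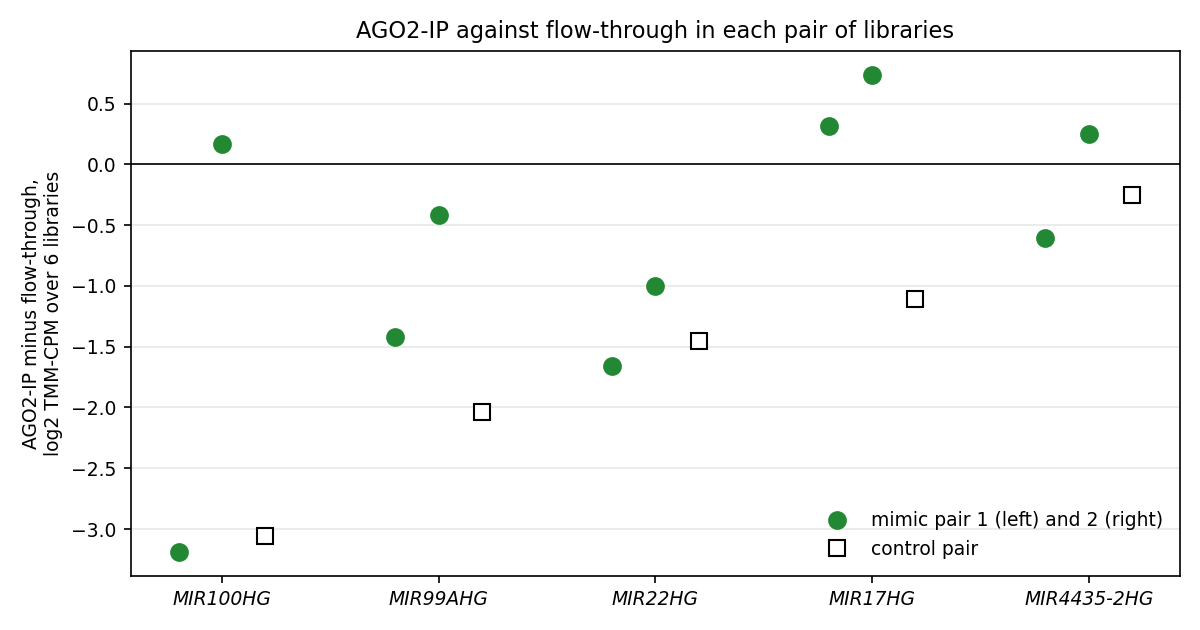
AGO2-IP minus flow-through for each host gene in mimic pair 1 (left green point), mimic pair 2 (right green point) and the control pair (open square), in log2 TMM-normalized CPM over 6 libraries. MIR99AHG and MIR22HG were below 0 in all 3 pairs, MIR100HG was at -3.19, 0.16 and -3.05, and MIR17HG was above 0 in both mimic pairs and at -1.11 in the control pair.

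The mimic libraries were then set against the control library of the same fraction, which asks whether the host RNAs changed with the added miR-99b-5p. This comparison and those above share the control libraries. In AGO2-IP, the log2 ratio of mimic over control for MIR100HG was -0.24 and 0.27 in the 2 mimic libraries, with a mean of 0.02. MIR4435-2HG was at -0.52 and 0.03, MIR22HG at -0.46 and -1.01, and MIR99AHG at 0.71 and -1.03. The mimic libraries thus fell on both sides of the control for MIR100HG, MIR4435-2HG and MIR99AHG. MIR17HG was at 1.74 and 2.07 over a control of 2 counts, and it alone of the 5 reached a mean of 1, where 17.3% of 11467 genes did, and 12.2% in both mimic libraries. Those 11467 genes had at least 200 counts in this comparison, which MIR17HG and MIR99AHG did not reach. None of the 5 had a mean of -1 or lower, against 17.4% of all genes.

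In the flow-through, the log2 ratio of mimic over control for MIR100HG was -0.08 in library 1 and -2.88 in library 2, with a mean of -1.48. MIR99AHG was at 0.11 and -2.61, with a mean of -1.25. These 2 hosts were the members with a mean of -1 or lower, as 10.2% of 12254 genes had, but neither was at or below -1 in both libraries, as 3.35% of genes were. Those 12254 genes had at least 200 counts in this comparison, which MIR99AHG and MIR17HG did not reach. MIR22HG was at -0.23 and -1.39, MIR4435-2HG at -0.14 and -0.40, and MIR17HG at 0.34 and 0.29 over a control of 3 counts, and none of the 5 had a mean of 1 or higher, as 10% of genes had. In flow-through library 1, MIR100HG and MIR99AHG were thus close to the control, and without library 2 none of the 5 had a mean of -1 or lower. With 1 control library per fraction, and with the composition of the controls described above, a difference between mimic and control cannot be told apart from a difference between libraries.

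**Figure D4:**
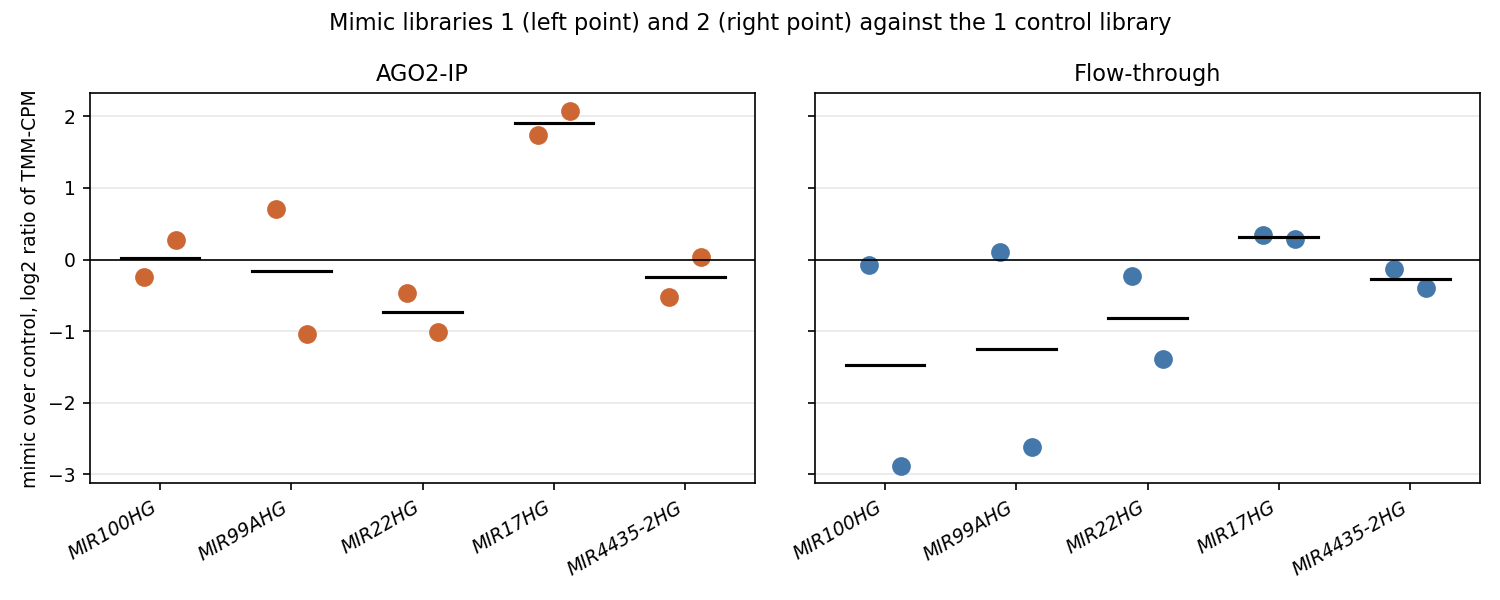
Log2 ratio of TMM-normalized CPM, mimic over the 1 control library, in AGO2-IP (left) and flow-through (right), with points for mimic library 1 and 2 and a line for their mean. MIR100HG was at -0.24 and 0.27 in AGO2-IP and at -0.08 and -2.88 in the flow-through, and MIR17HG was above 1 in both AGO2-IP libraries.

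Levels were compared between the genes per kilobase of exon, as CPM divided by the union of annotated exons. In the mimic AGO2-IP, MIR4435-2HG was highest at 1.97 ± 0.473, followed by MIR22HG at 0.728 ± 0.216, MIR100HG at 0.184 ± 0.0417, MIR17HG at 0.0795 ± 0.0116 and MIR99AHG at 0.00828 ± 0.00729 (SD, n = 2 each). The ranges of neighbours in this order did not overlap between the 2 libraries. In the mimic flow-through the means were 2.24 ± 0.842 for MIR4435-2HG, 2.10 ± 1.57 for MIR22HG, 0.892 ± 1.03 for MIR100HG, 0.0537 ± 0.0150 for MIR17HG and 0.0234 ± 0.0277 for MIR99AHG (SD, n = 2 each). There MIR4435-2HG overlapped with MIR22HG and MIR22HG with MIR100HG, while MIR17HG and MIR99AHG only just did not overlap.

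MIR4435-2HG was the highest of the 5 per kilobase in 4 of 6 libraries, MIR22HG in the control flow-through and in mimic flow-through 1, and MIR99AHG was the lowest in all 6. With the length of the longest transcript in place of the exon union, MIR4435-2HG was the highest in all 6 libraries, MIR100HG stood above MIR22HG in 5, and MIR17HG was the lowest in 3. The order among the middle and the lowest genes therefore depended on the length chosen.

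Other host genes were read from the same fit. The annotation names 84 genes in the pattern MIR...HG, the 5 included, of which 13 had no count in any library and 16 were tested. None of the 16 was called in either direction by edgeR or PyDESeq2. Of the 789 lncRNA genes tested, edgeR called none, and PyDESeq2 called 39 depleted and 15 enriched. Of the 16, 3 (MIR100HG, MIRLET7BHG and MIR23AHG) had an unadjusted p under 0.05 in edgeR, and 14 had a log2 fold change below 0. Their median was -0.35, beside -0.11 over all 13078 genes tested, of which 53.0% were below 0, and -0.62 over the 789 lncRNA genes tested, of which 68.7% were below 0. Both mimic AGO2-IP libraries were below both flow-through libraries in 5 of the 16 and above them in none. Over all genes tested these orders were seen in 28.5% and 28.1%, and over the lncRNA genes in 36.5% and 13.2%. An unadjusted p under 0.05 in edgeR was seen in 23.8% of all genes. With the GC trend removed the list's median was -0.69, beside -0.05 over all genes and -0.55 over lncRNA genes. MIR100HG was then the 1 gene of the list called, as depleted, where 284 of 13078 genes and 15 of 789 lncRNA genes were. With block and GC removal MIR100HG and MIR137HG were called depleted, where 12.5% of all genes and 149 of 789 lncRNA genes were. MIR600HG was called enriched, where 1792 of 13078 genes and 45 of 789 lncRNA genes were. Leaving out mimic flow-through 1 leaves 1 flow-through library. The median of the 15 genes of the list then tested was -0.66, beside 0.09 over all genes and -0.45 over the lncRNA genes.

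Of 28 genes under other names that carry a microRNA, most of them protein-coding, 27 were tested and none was called by edgeR. Of the 27, 9 had an unadjusted p under 0.05 in edgeR, beside 23.8% of all genes. PyDESeq2 called 5 of them depleted (CTDSP1, EGFL7, EVL, SPACA6 and SREBF1) and 2 enriched (HNRNPK and PANK1), where it called 8.24% of all genes depleted and 6.43% enriched. Both mimic AGO2-IP libraries were below both flow-through libraries in 8 of the 27 (29.6%) and above them in 14 (51.9%). Over all genes these orders were seen in 28.5% and 28.1%, and over protein-coding genes in 27.4% and 29.6%. The differences in share were not tested. The median of the 27 was 0.50. With the GC trend removed the median was -0.01, so the side of 0 on which it lay depended on that trend. Most of the MIR...HG genes tested thus lay below 0, as did 68.7% of lncRNA genes, while the hosts under other names spread to both sides. Of these hosts, mostly protein-coding, 44.4% lay below 0, beside 51.3% of the 11747 protein-coding genes tested, whose median was -0.05. The lists thus differ in gene type, and whether hosts differ from other genes of their type was not tested.

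The lowest of all host genes tested was SPACA6, a sperm acrosome membrane gene whose locus holds MIR99B, MIRLET7E and MIR125A, the locus from which the endogenous microRNA copied by the mimic comes. The control had 13 counts of SPACA6 in AGO2-IP and 22 in flow-through, the mimic flow-through libraries had 196 and 562, and the mimic AGO2-IP libraries 58 and 31. Its log2 fold change was -3.11 ± 0.92 (SE; edgeR adjusted p = 0.0961), and both mimic AGO2-IP libraries were below both flow-through libraries, as in 28.5% of all genes tested. With the replicate block edgeR called SPACA6 and EVL depleted, where 5.08% of all genes were, and HNRNPK enriched, where 4.6% were. With the GC trend removed it called HNRNPK and MCM7 enriched, where 3.13% of all genes were, and none of these hosts depleted. With block and GC removal together it called HNRNPK, MCM7 and PANK2 enriched, where 1792 of 13078 genes were, and EVL and SPACA6 depleted, where 12.5% were. Without mimic flow-through 1 the fit leaves 1 flow-through library, so its calls of host genes are not listed here. The median of the 27 hosts under other names was then 0.44, beside 0.09 over all genes and 0.13 over protein-coding genes.

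EGFL7, a secreted endothelial factor gene that carries MIR126, was at -2.68 (edgeR adjusted p = 0.138), and EVL, an actin regulator gene with MIR342, at -2.16 (edgeR adjusted p = 0.132). At the other end HNRNPK, an RNA-binding protein gene with MIR7-1, had 2752 counts in control AGO2-IP and 1222 in control flow-through, 22604 and 7509 in the mimic flow-through libraries, and 99676 and 65151 in the mimic AGO2-IP libraries. Its log2 fold change was 2.67 ± 0.65 (SE; edgeR adjusted p = 0.0660) and its control ratio 0.22. The pantothenate kinase genes PANK1, with MIR107, and PANK3, with MIR103A1, were at 2.02 (edgeR adjusted p = 0.118) and 1.55 (edgeR adjusted p = 0.253).

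**Figure D5:**
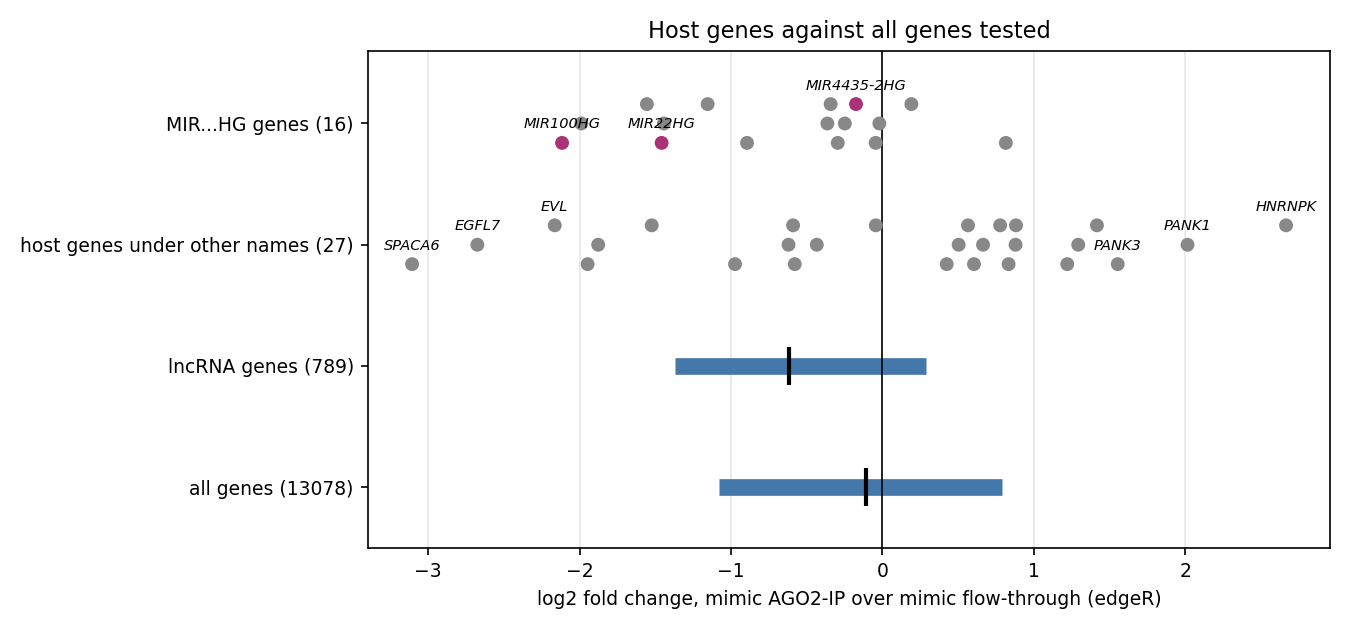
Log2 fold change, mimic AGO2-IP over mimic flow-through, of the 16 MIR...HG genes and the 27 hosts under other names tested (points), with the median (black tick) and the range between the quartiles (bar) for lncRNA genes and for all genes. The 3 genes tested of the 5 described here are in purple, at -2.12, -1.46 and -0.17.

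The hairpins themselves gave almost no counts. Of 17 microRNA genes counted (those within the 5 hosts and those at the miR-99b locus), 13 had 0 counts in all 6 libraries. For 10 of the 13 this says nothing about the reads present, since their hairpins lie within an exon of the host on the same strand and pairs that fall on both genes are counted for neither. For MIR99A, outside every exon of its host, a count of 0 allows up to 3 per library, and MIRLET7E and MIR125A were not placed against the exons of SPACA6. MIR100, MIRLET7A2, MIR125B1 and MIR99B had 2 or 3 counts summed over all libraries. None reached the count needed for a test, and neither the transfected mimic nor the mature microRNAs can be read from these values.

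The sequence opposite the shared seed was looked for in the annotated transcripts of the hosts, on the transcript strand. The letters TACGGGT, which pair with bases 2 to 8, and ACGGGTA, which pair with bases 2 to 7 and add an A opposite base 1, were in no transcript of any of the 5 genes. The first occurs in 1.27% of all lncRNA genes and in 3.27% of those whose longest transcript has 2000 nucleotides or more. The shorter ACGGGT, contained in both, was in 4 of the 107 transcripts of MIR100HG, in 1 of 16 of MIR17HG and in none of the other 3 genes, and it occurs in 7.72% of all lncRNA genes and in 18.4% of those with a longest transcript of at least 2000 nucleotides, a length that all 5 hosts exceed. A match is a description of letters and not of a binding site.

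For each gene the tested genes with the most similar profile over the 6 libraries were taken from about 13299 genes, by the root mean square difference of centred log2 values. For MIR100HG these were ARPC3, an actin-nucleating complex subunit, at 0.22, and the lncRNA CASC8 at 0.24, and 52 genes lay within 0.5. ARPC3 stood at 20.8 CPM in control AGO2-IP and 89.0 in control flow-through, at 142 and 20.8 in the mimic flow-through libraries, and 19.1 and 21.2 in the mimic AGO2-IP libraries, so it too was high in the control and first mimic flow-through and low in the other 4 libraries.

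MIR99AHG was most like MGST2 (0.36) and HMGN5 (0.37), with 32 genes within 0.5, the fewest of the 5. MIR22HG was most like CYB5R2 (0.13) and UBE2D4 (0.19), and MIR17HG like ZC3H13 (0.16) and NBPF10 (0.16). MIR4435-2HG was most like JPT2 (0.09) and C6orf136 (0.11), and 1888 genes lay within 0.5 of it. The cut of 0.5 is fixed, so a flat profile has many genes within it and one with large swings has few. These numbers therefore do not show whether the pattern of MIR100HG or MIR99AHG is rare. The likeness is over 6 libraries and includes their technical differences.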

How the data were processed

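MDA-MB-231 cells received the scrambled control or the mimic of miR-99b-5p, and AGO2-IP and flow-through RNA was sequenced as paired ends. Per the labels and the methods, the authors used FastQC 0.11.9, cutadapt 3.5 and STAR 2.7.11b on GRCh38 with an Ensembl annotation whose release is not given in the sources used here. The deposited values are unnormalized counts of read pairs per gene, with a column that ignores strand (used here) and a column per strand (alternatives). STAR counts uniquely aligned pairs that fall on 1 gene. The 4 rows that name no gene (21.4% to 95.03% of pairs) entered neither library sizes nor tests.

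GENCODE 44 named 60463 of 60708 gene identifiers, and its gene models may differ from those counted, since identifier versions differ for some genes. Mimic AGO2-IP and flow-through were compared with edgeR 4.0.16 in R 4.3.3 (TMM normalization, quasi-likelihood test, two-sided, summed count of at least 200 over the 4 libraries, no block), with PyDESeq2 0.5.4 as an alternative. SE is the fold change divided by the square root of F. Comparisons with a control library are log2 ratios with a prior count of 2 and no test. Intervals on counts are exact at 95% and, as read pairs carry no molecular identifiers, cover counting error only. GC trends were removed with a lowess curve (span 0.2). The fit was tested on data simulated with a smaller dispersion than these data showed and with no GC trend. That test therefore does not show how often calls are missed or false here.

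Same-numbered mimic fractions share a replicate number. That they are bound and unbound RNA of the same immunoprecipitation was inferred from that number. Their deviations from the group means correlated across genes with r = 0.32, and the block was taken to pair them.

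The members and gene lists were chosen with earlier results of these data known. Genes named are the members, CYTOR as the copy of MIR4435-2HG, the 3 highest and 3 lowest tested host genes (none was called), and for each member the 2 genes with the nearest profile. Other genes named were chosen after their values were seen.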

Additional observations from a re-analysis of the deposited data

Results flagged for a closer look

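MIR17HG differed in direction between the treatments. On log2 TMM-normalized values over all 6 libraries, AGO2-IP minus flow-through averaged 0.53 in the mimic pairs (0.31 and 0.74) and was -1.11 in the control pair. The control pair had 2 and 3 counts, against 27 to 43 in the mimic libraries, and this contrast between the treatments was not tested.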

How the results depend on the processing

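Of 48 alternative values of the tested host genes in the mimic comparison, 41 kept their direction and their side of the threshold, 3 brought MIR100HG past it and 4 turned the sign of MIR4435-2HG. MIR100HG was called depleted with the GC trend removed (-2.56), with replicate block and GC removal (-2.44) and without mimic flow-through 2 (-2.96), so the host genes called numbered 1 in each of these and 0 to 1 when single libraries were left out. MIR4435-2HG, -0.17 in the main setting, was 0.16 and 0.25 with the strand columns, 0.19 with no filter on low counts, and 0.066 without mimic AGO2-IP 1. The strand columns do not separate MIR4435-2HG from BCL2L11, since the libraries were not strand-specific. With single libraries left out MIR100HG ranged from -2.96 to -0.14 and MIR4435-2HG from -0.51 to 0.066. The lowest value of MIR4435-2HG was -0.85, with the GC trend removed. Without the filter the median was -0.52 over the 43635 genes then tested and 0.28 over the 13078 genes of the main setting, for which it had been -0.11. The cause was not tested.

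The counts of all genes called, 32 enriched and 54 depleted, were 13 and 33 with DESeq2 size factors, 9 and 35 with library size alone, 419 and 204 without the filter, 17 and 30 with filterByExpr, 10 and 28 with strand column 3, 2 and 12 with strand column 4, 409 and 284 with the GC trend removed, 0 and 0 with lncRNA and protein-coding genes only, and 841 and 1077 with PyDESeq2. With the replicate number as a block they were 601 and 664, and with block and GC removal 1792 and 1633. Leaving out 1 library gave 2 to 2476 enriched and 20 to 2527 depleted genes, the highest values without mimic flow-through 1. The block alone changed no call of a host gene among the 5, whose MIR100HG value was then -1.54.

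Of 122 alternative log2 ratios, 101 moved by less than 1 SD between mimic libraries or, for the control pair, 0.5 of the width of its counting interval, and 21 moved by more. Leaving out 1 of 2 mimic libraries moves their mean by less than 1 SD, apart from renormalization. For those alternatives the outcome was largely fixed in advance, and the 101 does not measure robustness. In the flow-through MIR100HG went from -1.48 to -2.97 without library 1 and to -0.24 without library 2. In mimic over control AGO2-IP, the number of the 5 genes at or below -1 rose from 0 to 1 with strand column 3 and with libraries thinned to the shallowest total, and was 0 to 1 with 1 mimic library left out. In the flow-through it was 1 with library size alone in place of 2, and 0 to 3 with 1 mimic library left out. Depth limits the control values most, where MIR17HG and MIR99AHG had 2 to 11 counts.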
